A study of Mus musculus with 2 samples.

Results

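The MYC, MAX and MXD network was taken here as 10 genes, found by symbol in the deposited gene tables: Myc, Mycn, Mycl, Max, Mxd1, Mxd3, Mxd4, Mxi1, Mnt and Mga. They are 10 of 43346 gene entries and all 10 are protein-coding. The series holds 2 paired-end libraries of polyA RNA, replicates 1 and 2, from G1E, an immortalized mouse cell line labelled as a Gata1-negative erythroid progenitor, male, with an age of 0 day and no treatment named. Both libraries share the cell line and the loss of Gata1, the main transcription factor of red cell maturation, and there is no Gata1-positive, treated or later group, so no condition can be compared. Although labelled as biological replicates, the libraries cite the same cell sample, so differences between them may be technical. The p-values printed below set the difference between these 2 libraries against counting error only. They measure no spread between replicates or cultures.

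MYC, MYCN and MYCL are basic helix-loop-helix leucine zipper proteins that bind DNA only as a dimer with MAX, at the E-box CACGTG, where they raise transcription of genes for ribosome production, nucleotide synthesis and the cell cycle. The MXD proteins, MXI1 (also called MXD2) and MNT pair with the same MAX and bind the same sites but recruit SIN3 and histone deacetylases, so they oppose MYC, and MGA pairs with MAX inside a polycomb complex. In the red cell lineage Myc is known to be high in dividing progenitors and to fall as they mature, and in G1E cells restoring GATA1 is known to shut Myc down.

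Depth was 61982634 expected counts (read pairs that a model assigns to genes) in replicate 1 and 80658648 in replicate 2. Gata1 itself was listed at 48.0 and 46.6 TPM (a transcript level scaled by length and by library total). That value is summed over the gene and does not show whether the disrupted part is in the RNA. All 10 erythroid progenitor markers examined, Gata1 among them, were detected, which here means 1 TPM or more in both libraries. The highest was the globin gene Hba-a1, at 3881 and 4446 TPM, and Gata2 was at 1086 and 941 TPM. Of the defining markers of other cells, 0 of 5 lymphocyte, 0 of 5 fibroblast and endothelial and 0 of 3 pluripotent genes were detected, and their summed levels were at most 0.04 TPM. Megakaryocyte markers were detected for 3 of 5 genes, with summed levels of 31.4 and 39.9 TPM led by Itga2b, while Vwf was at or below 0.06 TPM. Mast cell markers were detected for 1 of 5 (sums of 3.42 and 3.71 TPM, Cpa3) and neutrophil and monocyte markers for 1 of 6 (sums of 2.39 and 3.09 TPM, Mpo), with Fcer1a at 0 and Csf1r at 0.01 TPM. The RNA is from bulk cells, so fewer cells expressing a gene and less RNA per cell cannot be told apart.

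In these cells 1 MYC family gene, Myc, carried nearly all of the family's RNA and was the most abundant member of the network. Its obligate partner Max and the antagonist Mnt came next, well below it, and the remaining antagonists were lower again. In all, 8 of the 10 members were detected, against 40.0% of the 21474 protein-coding genes, and 3 of the 10 reached 100 TPM in both libraries, against 5.56% of protein-coding genes.

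**Figure D1:**
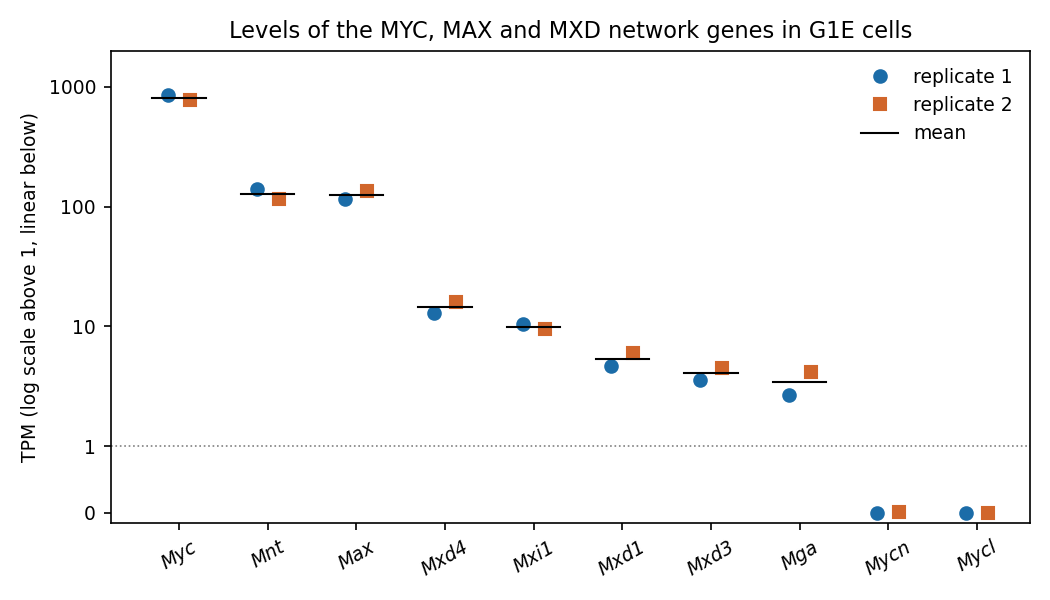
TPM of the 10 network genes in each library, on an axis that is logarithmic above 1 and linear below. Circles are replicate 1, squares are replicate 2, and the black bar is their mean. Myc sits at 849 and 774, Mnt (141 and 115) and Max (116 and 134) overlap, and Mycn and Mycl lie on the baseline.

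Myc, the activating member (ENSMUSG00000022346.10, mm10 chr15:61985391-61990374, plus strand), was at 849 TPM in replicate 1 and 774 TPM in replicate 2, a mean of 812 ± 53.2 TPM (SD, n = 2). These levels rested on 67960 and 78886 expected counts. Among the 8581 detected protein-coding genes Myc ranked 144th in replicate 1 and 157th in replicate 2, above 98.3% and 98.2% of them. Both libraries therefore placed it within the same narrow band near the top.

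Mycn, a relative best known from neural progenitors (chr12:12936093-12941914, minus strand), had 0 expected counts in replicate 1 and 1 in replicate 2, which the authors list as 0 and 0.01 TPM. Mycl, the remaining family member (chr4:122995652-123002485, plus strand), had 0 counts and 1 count and was listed at 0 TPM in both. A count of 0 in replicate 1 allows up to 3 counts, or 0.0484 CPM (counts scaled by the library total). Neither gene was detectable beyond 1 read pair at this depth.

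The gene next to Myc is Pvt1, a long noncoding RNA gene. Its 6 counts in replicate 1 and 12 in replicate 2 corresponded to 0.05 and 0.10 TPM, so it was far below Myc in both libraries.

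The transcript tables divide Myc among 8 models, and the division rests on small features of them. Myc-208, a model of 1362 bases that holds the coding sequence and its stop codon and no more, was given 73.15% of the gene's TPM in replicate 1 and 71.94% in replicate 2. Myc-202, with 2186 bases, was given 24.54% and 23.97%. As shares of expected counts the figures were 62.2% and 60.6% for Myc-208 and 34.98% and 33.9% for Myc-202, because a short model gains in TPM when counts are divided by length. Shares that rest on where a model ends do not show that RNA without untranslated ends exists.

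A feature that these models do not share is the acceptor of exon 2, where 2 sites lie 3 bases apart. The sequences below are shown because this choice separates the models with nearly all of the Myc signal from the rest: they are the exon 1 to exon 2 junctions (exon 1 ends at chr15 position 61985951), read 5′ to 3′ from the mm10 transcripts, and the capitals mark the 3 bases that only the longer form holds.
Myc-201, exon 2 from position 61987507: ttggaaaccccgCAGacagccacgacgatg
Myc-208, exon 2 from position 61987510: ttggaaaccccgacagccacgacgatg
Models with the downstream acceptor (Myc-202, Myc-206 and Myc-208) summed to 97.69% of Myc TPM in replicate 1 and 95.91% in replicate 2, a mean of 96.8% ± 1.26 (SD, n = 2). Models with the upstream acceptor (Myc-201, Myc-203 and Myc-205) summed to 2.19% and 3.94%. Myc-201 and Myc-205 have the same length of 2338 bases and were given the same count, 879.88 in replicate 1 and 2062.25 in replicate 2, so the model did not separate them. Models with different acceptors can also begin at different positions (61985391 for Myc-201 and 61985564 for Myc-202), and reads across the junction itself were not analysed here.

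Max, the common partner of every other member (ENSMUSG00000059436.8, chr12:76937269-76962201, minus strand), was at 116 TPM in replicate 1 and 134 TPM in replicate 2, a mean of 125 ± 12.9 TPM (SD, n = 2). It was the only partner gene of the network and was present at 11879 and 17382 expected counts. It ranked 1123rd and 1001st among the detected protein-coding genes.

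Max is known to make a long and a short protein that differ by a short insert before the DNA-binding basic region. The insert is a 27-base coding exon (chr12:76961263-76961289), present in Max-202 and absent from Max-201. Their mm10 sequences are printed because the models differ by this exon. Its 27 bases equal the difference between the deposited lengths of the models (1978 and 2005 bases). The exon is that of GENCODE M21, whose Max models have other lengths (1926 and 1942 bases), and reads over it were not analysed here. Capitals mark the exon.
Max-202: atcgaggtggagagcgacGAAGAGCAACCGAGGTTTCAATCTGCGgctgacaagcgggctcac
Max-201: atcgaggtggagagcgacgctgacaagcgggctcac
The form without the exon, Max-201, was given 87.01% of Max TPM in replicate 1 and 85.60% in replicate 2. Max-202 was given the remaining 12.99% and 14.40%. The shares of expected counts were nearly the same (86.8% and 85.4% for Max-201), as both models have similar lengths. By this model estimate the short form led in both libraries, with an SD of 0.997 percentage points over them.

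The MXD genes encode the small repressors of the network, which are known to rise as cells leave the cell cycle, except MXD3, known from cycling cells. Each was lower than Max and Mnt in both libraries. Mxd4 (chr5:34173883-34187720, minus strand) was at 12.9 and 16.1 TPM, with a mean of 14.5 ± 2.25 TPM (SD, n = 2). Mxi1 (chr19:53310518-53375810, plus strand) was at 10.43 and 9.5 TPM, a mean of 9.97 ± 0.658. Mxd1, the founding member that is typical of maturing blood and epithelial cells (chr6:86647042-86669161, minus strand), was at 4.69 and 6.01 TPM, a mean of 5.35 ± 0.933. Mxd4 and Mxi1 were thus the leading MXD genes, and Mxd1 was below them without overlap.

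Mxd3 (chr13:55325168-55329823, minus strand) was at 3.58 and 4.54 TPM, a mean of 4.06 ± 0.679 (SD, n = 2), from 239 and 378 counts. Its span overlaps by 105 bases that of Prelid1, a gene on the opposite strand at 415 and 820 TPM. Whether counting used the strand is not given in the sources used here, so reads of the shared bases cannot be told apart and the level of Mxd3 is uncertain to that degree. Summed over Mxd1, Mxd3, Mxd4 and Mxi1, the MXD genes reached 31.6 TPM in replicate 1 and 36.1 TPM in replicate 2.

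Exon 3 of each MXD gene has exactly 30 coding bases, and it encodes part of the basic region that contacts the E-box. The exon is printed for all 4 genes, from mm10, because Mxd4 has a model without it. Capitals mark the 17 positions at which all 4 are the same.
Mxd1, chr6:86663071-86663100, minus strand: aTCaactCACAAtGAaaTgGAaAAGaaCaG
Mxd3, chr13:55328614-55328643, minus strand: gTCtgtgCACAAcGAgcTgGAgAAGcgCaG
Mxd4, chr5:34184314-34184343, minus strand: gTCttcaCACAAcGAacTaGAaAAGcaCaG
Mxi1, chr19:53346451-53346480, plus strand: aTCtacaCACAAtGAgtTgGAaAAGaaCcG
The Mxd4 exon matched that of Mxd3 at 23 of 30 bases and those of Mxd1 and Mxi1 at 22 each. Mxd4-201, which holds the exon, was given 75.80% of Mxd4 TPM in replicate 1 and 72.42% in replicate 2. Mxd4-202, which skips it, was given 24.20% and 27.58%. As a share of expected counts Mxd4-202 had 8.01% and 9.38%, or 177 and 317 counts. It is also much shorter than Mxd4-201 (1160 against 3872 bases), so reads outside the exon enter the division too, and the skipping itself was not measured.

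Mxi1 was the member whose leading transcript differed between the libraries. Mxi1-202, which starts at position 53329458, was given 55.52% of Mxi1 TPM in replicate 1 and 46.02% in replicate 2. Mxi1-201, which starts 18940 bases upstream at 53310518, was given 44.41% and 53.92%. In expected counts Mxi1-202 had 1570 and 1498 and Mxi1-201 had 1297 and 1814, and the authors' posterior SD of these counts was 20.9 to 26.0. The model thus divided the reads about evenly between them, and their order turned round between libraries. Start positions are those of M21, whose models differ in length from the deposited ones (2627 against 5156 bases for Mxi1-201), and reads over the separate first exons were not analysed here. The coding sequence is 885 bases in Mxi1-201 and 576 bases in Mxi1-202, so the upstream start belongs to the longer coding sequence.

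The 100 bases before the RefSeq start nearest to each (12 bases upstream of the Mxi1-201 start and 45 bases upstream of the Mxi1-202 start) are printed because these models are annotated with different promoters. They are given 5′ to 3′ on the plus strand of GRCm38.p6, with each CpG in capitals.
Mxi1-201 start, chr19:53310406-53310505: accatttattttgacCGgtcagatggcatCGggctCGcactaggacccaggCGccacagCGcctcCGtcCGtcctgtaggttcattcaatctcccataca
Mxi1-202 start, chr19:53329313-53329412: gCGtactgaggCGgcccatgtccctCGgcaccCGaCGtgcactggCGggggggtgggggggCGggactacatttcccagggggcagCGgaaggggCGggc
The upstream promoter was 56.0% G and C with 7 CpG, and the downstream promoter was 75.0% G and C with 9 CpG.

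Mnt, the antagonist that is known to be made in dividing and resting cells alike (ENSMUSG00000000282.8, chr11:74830920-74845725, plus strand), was at 141 TPM in replicate 1 and 115 TPM in replicate 2, a mean of 128 ± 18.7 TPM (SD, n = 2). Its range overlapped that of Max, with Mnt 1.22 times Max in replicate 1 and 0.858 times Max in replicate 2, so their order was not settled. Mnt alone made up 80.5% and 74.1% of the summed TPM of the 6 antagonists. It rested on 21361 and 21545 expected counts.

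The level of Mnt leans on a short model. Mnt-203, annotated as a retained intron of 777 bases, was given 45.69% of Mnt TPM in replicate 1 and 46.98% in replicate 2, but 10.7% and 11.2% of its counts. Of its 777 bases 740 lie in exons of coding Mnt models and 37 are its own, from an intron at chr11:74836326-74836362. The start of the model is printed from mm10 because these 37 bases (capitals) are all that sets it apart, followed by the first shared bases.
Mnt-203: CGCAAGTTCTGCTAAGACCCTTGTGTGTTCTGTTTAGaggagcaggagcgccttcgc
With coding transcripts alone, Mnt was at 76.8 and 61.0 TPM, below Max in both libraries and without overlap, and its share of the antagonists was 70.3% and 61.9%.

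Mga, a very large protein that joins MAX to polycomb repressors (ENSMUSG00000033943.11, chr2:119897228-119969581, plus strand), was at 2.69 TPM in replicate 1 and 4.13 TPM in replicate 2, a mean of 3.41 ± 1.02 TPM (SD, n = 2). This was the lowest mean of the detected members, and its range overlapped that of Mxd3. Its noncoding model Mga-209, with 1264 bases that all lie in exons of coding models, was given 44.27% and 48.17% of the TPM but 9.34% and 9.80% of the counts. The coding models held 88.63% and 88.88% of the counts and 37.56% and 40.44% of the TPM. With coding transcripts alone Mga was at 1.01 and 1.67 TPM.

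**Figure D2:**
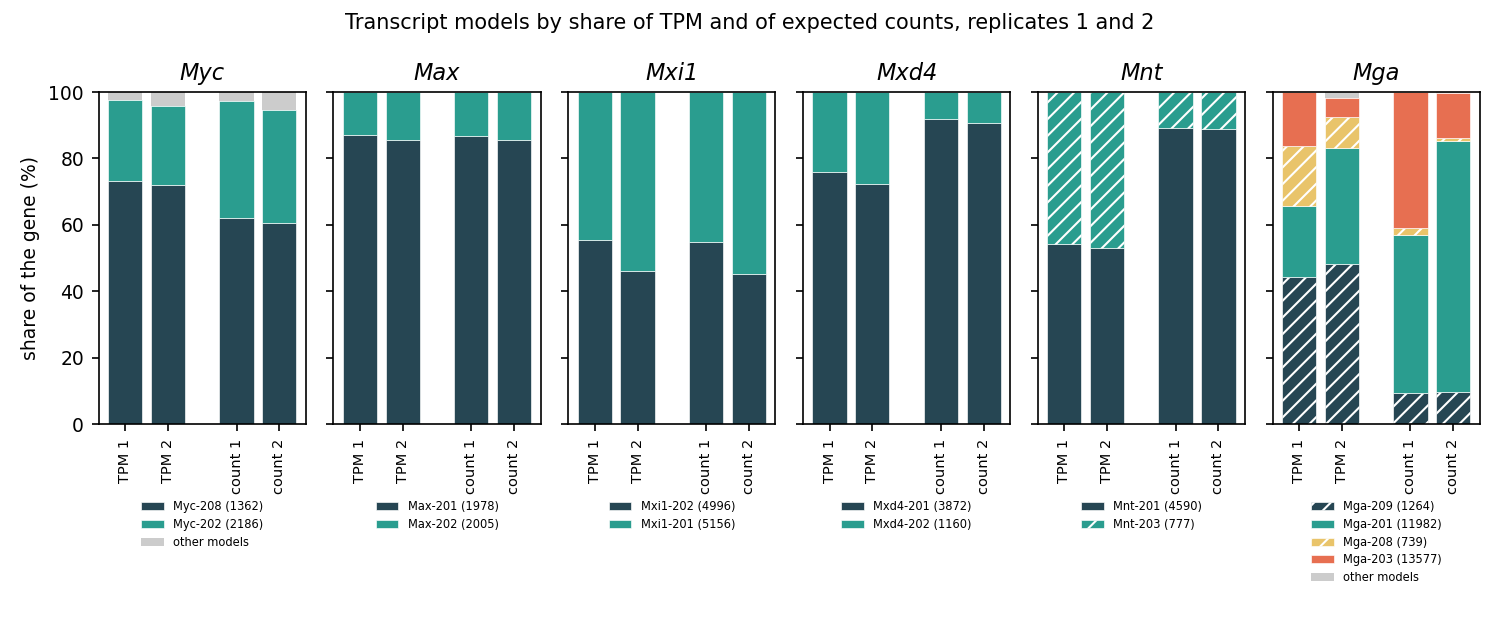
Share of each gene given to its transcript models, as percent of TPM (left pair of bars) and as percent of expected counts (right pair), for replicates 1 and 2. Legends give each model's deposited length in bases, and hatching marks noncoding models. Mnt-203 and Mga-209 are large in TPM and small in counts, Max is alike on both scales, and the leading Mxi1 model changes between the libraries.

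From the highest mean to the lowest, the order of levels was Myc, Mnt, Max, Mxd4, Mxi1, Mxd1, Mxd3, Mga, Mycn and Mycl. Neighbours whose ranges over the libraries overlapped were Mnt and Max, Mxd3 and Mga, and Mycn and Mycl. The ranges of all other neighbours were apart. Those of Mxd1 (4.69 and 6.01 TPM) and Mxd3 (3.58 and 4.54 TPM) came nearest to touching. Within libraries Mxd1 was 1.31 and 1.32 times Mxd3, and Mxd4 was 1.23 times Mxi1 in replicate 1 and 1.69 times in replicate 2. The gap of Mxd4 over Mxi1 depended on the lengths used. With counts divided by the longest coding transcript, Mxd4 was at 17.35 and 20.35 and Mxi1 at 16.93 and 14.99. The order then held but was close in replicate 1.

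Ratios within a library need no scaling between libraries. Myc was 4.83 times the summed TPM of its 6 antagonists in replicate 1 and 4.99 times in replicate 2, or 2.30 ± 0.03 (SD, n = 2) on the log2 scale. Most of that opposing RNA was Mnt: against the 4 MXD genes alone, Myc was 26.9 and 21.4 times higher. With coding transcripts alone the ratio to all 6 was 7.77 and 7.86, since Mnt and Mga then lose their noncoding models. The reads given to those models lie mostly or wholly in coding exons, so this may understate the antagonists. With each gene's whole count divided by its longest coding transcript, the ratio was 4.53 and 4.70.

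Set against each antagonist in turn, Myc was 6.004 and 6.732 times Mnt. It was 66.0 and 48.2 times Mxd4 and 81.4 and 81.5 times Mxi1. It was 181 and 129 times Mxd1, 237 and 171 times Mxd3, and 316 and 187 times Mga. The 2 libraries were nearest to each other for Mxi1 and farthest apart for Mga, the antagonist with the lowest mean level.

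**Figure D3:**
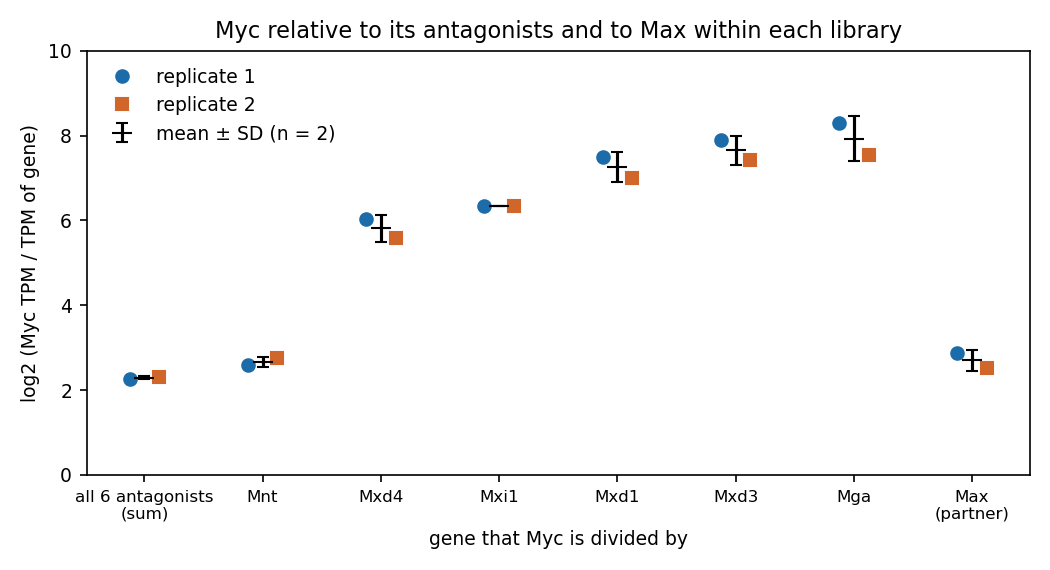
log2 of Myc TPM over the TPM of the gene named on the horizontal axis, within each library (circles replicate 1, squares replicate 2), with mean and SD (n = 2). Every ratio is above 0, from 2.30 for the sum of all antagonists to 7.93 for Mga.

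Because MAX is shared, its supply relative to the others was also taken. Myc was 7.34 times Max in replicate 1 and 5.78 times in replicate 2, or 2.70 ± 0.24 (SD, n = 2) on the log2 scale. The 6 antagonists together were 1.52 and 1.16 times Max, and all other members together were 8.86 and 6.93 times Max. Max RNA was thus the smaller quantity against Myc in both libraries. Against the antagonists the order depended on the models counted, as coding transcripts alone gave 0.944 and 0.735 times Max. These are ratios of RNA, and proteins were not measured.

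The only test these data allow is of 1 library against the other, which asks how far the members moved between replicates. Rounded counts were compared by an exact conditional binomial test (two-sided, with TMM-scaled totals), which knows counting error only. At a Benjamini-Hochberg adjusted p below 0.05 with a change of 2-fold or more, 0 of the 8 members tested were called, where 5.62% of all 11636 genes tested were (3.82% higher in replicate 2 and 1.8% higher in replicate 1). Mycn and Mycl had too few counts to be tested. At an unadjusted p below 0.05, 7 of the 8 members passed, as did 66.6% of all genes. With no fold requirement the same test called 7 of 8 members and 64.4% of all genes. Called higher in replicate 2 were 4 of these and in replicate 1 were 3 (32.2% of all genes in each direction). edgeR's exact test, with a spread common to all genes, called 0 members (0.98% of all genes) and gave 0 members an unadjusted p below 0.05 (5.1% of all genes). That spread could only be estimated from the same 2 libraries taken as 1 group, so these counts of 0 show nothing of the members' stability.

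By scaled counts the widest movers were Mga and Mnt, in opposite directions. By TPM Mga was again the widest, with a log2 ratio of replicate 2 over replicate 1 of 0.62. Mnt, at -0.30 by TPM, came after Mxd1 (0.36), Mxd3 (0.34) and Mxd4 (0.32). On the log2 scale of scaled counts, replicate 2 minus replicate 1, Mga differed by 0.50 (exact test, adjusted p = 1.33e-15, from 799 and 1600 counts) and Mnt by -0.49 (exact test, adjusted p = 1.64e-264). Myc differed by -0.28 and Mxi1 by -0.29. Max differed by 0.05 and Mxd3 by 0.16, the latter with an adjusted p of 0.246 by the exact test. The median absolute difference was 0.24 over the tested members and 0.27 over all genes tested, so the members' median was close to that of the rest.

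Members of the network are known to bind E-boxes in each other's promoters, so the motif CACGTG, which reads the same on both strands, was sought in RefSeq promoter windows (GRCm38.p6, 250 bases before to 50 after each start). Of the 10 members 9 had 1 or more of 11 windows, and Myc was not among them. Max, Mnt and Mxd4 each held 1 match. Of all 27025 genes with a window 8.09% held the motif, and of the 6878 detected protein-coding genes with a window 12.8% did. The matches are shown with 12 bases on either side, the motif in capitals, read on the gene's strand.
Max, chr12:76962234-76962263, beginning 3 bases before the start: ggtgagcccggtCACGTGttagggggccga
Mnt, chr11:74830789-74830818, beginning 123 bases before the start: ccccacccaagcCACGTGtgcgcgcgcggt
Mxd4, chr5:34187912-34187941, beginning 219 bases before the start: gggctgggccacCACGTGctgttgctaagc
The bases around the motif differ among the 3 genes. A match is a run of letters and was not tested for binding here.

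The genes that work with the network were taken from lists of textbook members. The corepressors of MXD proteins and MNT were detected for 5 of 6 genes: Ncor1 at 76.8 and 72.4 TPM, Sin3b at 61.0 and 56.3, Hdac1 at 49.4 and 59.4, Hdac2 at 38.3 and 32.6 and Sin3a at 23.9 and 15.2. Of the 2 SIN3 scaffolds, Sin3b was the higher in both libraries.

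MLX is a MAX-like protein that pairs with the glucose-sensing factors MLXIP and MLXIPL and with some MXD proteins and MNT. Mlx was at 17.6 and 13.4 TPM and Mlxip at 13.5 and 16.1 TPM, while Mlxipl, typical of liver and fat, was listed at 0 in both libraries. Mlx was therefore well below Max.

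All 10 partners of MGA in its polycomb complex were detected, from a mean of 7.92 TPM for Rybp (8.76 and 7.07 TPM) to Wdr5, a histone-binding subunit shared with activating complexes, at 130 and 110 TPM. Pcgf6, the subunit that defines the complex, was at 10.7 and 9.51 TPM, and E2f6 was at 8.22 and 7.81 TPM. Every one of these partners was above Mga itself in both libraries. Tfdp1, a partner of E2F factors, was at 16.0 and 35.1 TPM, the largest ratio between libraries in the list, and it was not called between the libraries.

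All 9 coactivators and partners of MYC were detected, each at more than 10 TPM. Ruvbl2, an ATPase of chromatin-remodelling complexes, was at 342 and 343 TPM, and Hcfc1 at 146 and 186. Trrap, the scaffold that MYC contacts directly, was at 33.7 and 50.1 TPM. Zbtb17, through which MYC represses genes, was at 60.9 and 52.5 TPM.

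All 11 genes of MYC protein turnover were detected, at medians of 9.51 and 10.3 TPM. Fbxw7, the ubiquitin ligase subunit that recognises phosphorylated MYC, was at 5.17 and 5.84 TPM, and Gsk3b, a kinase that marks it, at 9.94 and 9.43. Stub1 led the list at 51.7 and 61.4 TPM and Usp28, which removes ubiquitin, closed it at 1.37 and 1.55. Aurka was the 1 gene of the list called between libraries (higher in replicate 2, as were 3.82% of all genes tested), at 9.51 and 22.3 TPM.

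Other basic helix-loop-helix factors that can bind the same E-box were detected for 7 of 12 genes. The sterol regulators Srebf1, at 308 and 277 TPM, and Srebf2, at 246 and 252, were both above Max and Mnt. Usf2 was at 149 and 137 TPM and Tfeb at 72.0 and 57.6, whereas Mitf, their melanocyte and mast cell relative, was at 0 counts. None of the 12 reached the level of Myc.

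Textbook genes that MYC activates were detected for 14 of 15, with medians over the list of 321 and 383 TPM, where all detected protein-coding genes had medians of 16.97 and 19.02 TPM. Ncl, for the nucleolar protein nucleolin, was at 2085 and 2282 TPM, Ldha, for lactate dehydrogenase, at 2027 and 2112, and Cdk4 at 1703 and 1847. Cad, which starts pyrimidine synthesis, was at 431 TPM in both. Lower members were Odc1, the polyamine enzyme, at 50.9 and 38.0 TPM, Nme1 at 7.61 and 6.54 and Eif4e at 4.06 and 4.89, and Tert was listed at 0. The list also holds many genes that most dividing cells express highly, so its level says nothing of MYC by itself.

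Textbook genes that MYC represses with ZBTB17 were detected for 3 of 5. Cdkn1a, an inhibitor of cyclin-dependent kinases, was at 156 and 183 TPM, Gadd45a at 118 and 110 and Cdkn1b at 33.9 and 34.98. Cdkn2b had 1 and 0 counts and Ndrg1 was at 0.80 and 0.58 TPM. High, low and nearly absent genes thus stood side by side in this small list while Myc was high.

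**Figure D4:**
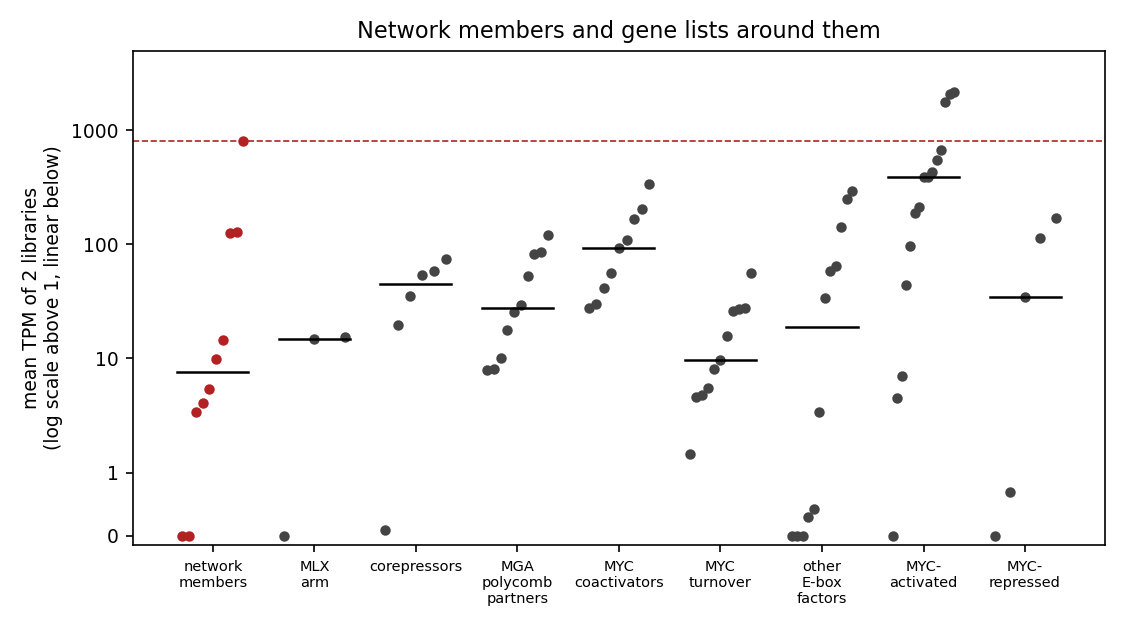
Mean TPM over the 2 libraries of every gene in the network (first column) and in 8 lists around it, on an axis that is logarithmic above 1 and linear below. Each point is a gene, the black bar is the median of the list, and the dashed line is the level of Myc. The points above that line are 3 genes of the activated list, Ncl, Ldha and Cdk4.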

How the data were processed

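PolyA RNA of the G1E line was measured in 2 libraries of 1 group. Per the file headers and the labels, the authors made gene and transcript tables for each library on mm10. Which aligner and counter they ran is not given in the sources used here. The deposited expected counts are estimated and need not be whole. The authors' TPM and FPKM values are scaled by effective length and library total, and the deposited percent per transcript is its part of the gene's TPM. Reads shared by overlapping models are divided by a model, so short models rest on few bases of their own.

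Symbols and exons came from GENCODE M21 on the same assembly, matched by Ensembl identifier for 42462 of 43346 gene entries. The deposited lengths differ from M21 for the Max, Mxi1, Mxd1-201, Mycn-201 and Myc-207 models. Promoters came from RefSeq. Levels are deposited TPM, with mean and SD over libraries, and no model was fitted to conditions. The exact test used counts rounded to whole numbers, genes that reached 10 counts in either library, and TMM factors (0.960 and 1.042) from edgeR 4.0.16 in R 4.3.3. Its adjusted p-values cover all genes tested. DESeq2 1.42.0 gave alternative size factors. Other steps used Python 3.11.15, pandas 2.3.3 and SciPy 1.17.1, and the test was tried on simulated data. Counting limits ignore copies made in amplification. All 10 members, every listed gene and the marker genes may be named. The members and lists were chosen with earlier results of these data known.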

Additional observations from a re-analysis of the deposited data

How the results depend on the processing

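No paired analysis was possible because the libraries form 1 group. Counts per annotated length gave 902.4 for Myc, in place of 812 TPM, and a log2 Myc to antagonist ratio of 2.23. That ratio, 2.30 as reported, was 2.966 with coding transcripts alone, 4.586 against the MXD genes and Mxi1 alone, and 2.207 with each gene's count divided by its longest coding transcript, an alternative chosen after seeing the data. The last also gave 2.096 for the log2 Myc to Max ratio and placed Max (180 and 202) above Mnt (142 and 110) in both libraries. Of the members, 5 were detected at 5 TPM and 4 at 10 TPM. Calls between libraries over all genes, 654 as reported, were 422 with at least 50 counts, 1689 at 1.5-fold, 169 at 4-fold, 114 with edgeR's exact test and 7495 with no fold requirement. That last choice, also made after seeing the data, called 7 members. With either library alone, the level of Myc was 774.0 to 849.2, the log2 ratio to antagonists 2.273 to 2.318, the log2 ratio to Max 2.53 to 2.875, the members detected 8 and the share of Myc-208 71.94% to 73.15%. Of 52 single-gene values under alternatives that kept both libraries, 33 moved by less than 1 SD of the libraries and 19 by more. Some of the 33 could not move, so that count is no measure of stability. FPKM only rescales TPM, coding transcripts alone leave genes such as Max, Mxd4 and Mxi1 unchanged, and Mxd1 has 1 transcript. With 2 libraries no spread between cultures can be estimated, and shares of transcripts are estimates of a model.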
